A study of Mus musculus with 19 samples.

Results

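The 10 genes of lipid uptake, storage and efflux described here are Apoe, Abca1, Abcg1, Soat1, Plin2, Fabp5, Cd36, Msr1, Pla2g7 and Nr1h3. They were listed by name for their roles in lipid handling, with earlier results of these data known. All 10 were among the 13783 genes of the sorted-cell table, and 9 of the 10 were among the 15634 genes of the hippocampus table. Msr1 in hippocampus was not analysed here. On GRCm38 (GENCODE vM21) all 10 are protein-coding. Of the carrier and efflux genes, Apoe lies at chr7:19696109-19699188 (minus strand), Abca1 at chr4:53030787-53159895 (minus) and Abcg1 at chr17:31057675-31117988 (plus). Of the uptake genes, Cd36 lies at chr5:17781690-17888801 (minus), Msr1 at chr8:39581685-39642673 (minus) and Fabp5 at chr3:10012548-10016607 (plus). The others are Soat1 at chr1:156424525-156474331 (minus), Plin2 at chr4:86648386-86670060 (minus), Pla2g7 at chr17:43568098-43612201 (plus) and Nr1h3 at chr2:91184061-91202834 (minus). Values cover whole genes, all exons together.

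RNA was sequenced from brains of mice with chronic graft-versus-host disease (GVHD) and of transplanted mice without it. Every recipient had 1100 cGy of total-body irradiation in split doses and then 5000000 bone marrow cells depleted of T cells (TCD). GVHD mice also received 500000 splenic T cells, and TCD mice received none. The day 70 brain cells were sorted. From GVHD mice there were 6 libraries of macrophages labelled as derived from donor bone marrow and 4 of the host's own microglia, and from TCD mice there were 3 of host microglia. The day 80 samples were whole hippocampus, with 3 GVHD and 3 TCD libraries. Mouse strains, sex, age and the markers of the sort are not given in the sources used here. The labels do not say which libraries came from separate animals, so p-values measure the spread between these libraries. The title of TCD host 1 says TCD, while its description reads Syn, a term the labels do not explain.

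Lipid reaches macrophages and microglia as lipoproteins, dead cells and myelin debris. Scavenger receptors such as CD36 and MSR1 take it up, and FABP5 carries fatty acids inside the cell. Cholesterol is then esterified by SOAT1 and kept in droplets coated by PLIN2, or passed out by the pumps ABCA1 and ABCG1 onto particles that carry apolipoprotein E. Sterol-sensing LXR nuclear receptors, one of them encoded by Nr1h3, turn on the pumps and Apoe. PLA2G7 is a secreted phospholipase that travels with lipoproteins and cleaves platelet-activating factor (PAF) and oxidised phospholipids. In healthy brain, astrocytes make most of the apolipoprotein E.

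The levels below are the authors' normalised counts, on a scale where each library sums to about the same total. Most microglia and macrophage markers followed the labels of the sorted cells. Fcrls of the microglia list did not, at a mean of 1633 in donors, 905 in GVHD hosts and 2049 in TCD hosts. The 10 microglia markers summed to 9139 to 14768 in donors, 32930 to 41389 in GVHD hosts and 38427 to 51752 in TCD hosts. P2ry12, a microglial receptor, had 682 to 1498 in donor macrophages, against 11136 to 14144 in GVHD hosts and 13428 to 18980 in TCD hosts. Lyz2, the lysozyme gene of macrophages and neutrophils, had 10511 to 18394 in donors, 459 to 909 in GVHD hosts and 285 to 717 in TCD hosts. Donor 1, donor 5 and TCD host 1 stood apart from their group mates in a trend with GC content of 0.39 to 0.46 log2 units per 10 percentage points of GC, against -0.26 to 0.10 in the other sorted libraries. For each comparison of sorted cells, the counts of called genes among the 10 are therefore also given without these libraries. Other lists, marker levels and most single-gene changes are given only with them. The libraries held an estimated 7901523 to 35844769 reads on genes in sorted cells and 16673616 to 18546935 in hippocampus.

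The promoter windows of the sterol pump, the droplet coat and the apolipoprotein gene are shown because these genes were higher together in donor macrophages and cover efflux, storage and the carrier. Each window runs from 250 bases before to 50 after a gene start, 5′ to 3′ on the gene's strand, from RefSeq on GRCm38.p6. Capitals mark matches to the motifs named in the next paragraph. Apoe lies on the minus strand at chr7:19699139-19699438, Abca1 on the minus strand at chr4:53159846-53160145, and Plin2 on the minus strand at chr4:86670010-86670309.
Apoe: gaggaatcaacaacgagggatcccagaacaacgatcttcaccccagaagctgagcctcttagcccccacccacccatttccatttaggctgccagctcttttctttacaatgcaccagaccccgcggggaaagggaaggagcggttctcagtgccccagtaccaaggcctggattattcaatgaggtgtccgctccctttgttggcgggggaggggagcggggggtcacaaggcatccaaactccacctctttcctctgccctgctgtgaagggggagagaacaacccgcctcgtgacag
Abca1: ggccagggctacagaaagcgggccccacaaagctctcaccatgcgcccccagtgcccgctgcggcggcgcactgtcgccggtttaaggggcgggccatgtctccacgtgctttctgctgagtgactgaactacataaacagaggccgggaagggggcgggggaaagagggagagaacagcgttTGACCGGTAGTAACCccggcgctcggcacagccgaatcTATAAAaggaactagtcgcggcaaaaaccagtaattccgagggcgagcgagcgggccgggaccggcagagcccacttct
Plin2: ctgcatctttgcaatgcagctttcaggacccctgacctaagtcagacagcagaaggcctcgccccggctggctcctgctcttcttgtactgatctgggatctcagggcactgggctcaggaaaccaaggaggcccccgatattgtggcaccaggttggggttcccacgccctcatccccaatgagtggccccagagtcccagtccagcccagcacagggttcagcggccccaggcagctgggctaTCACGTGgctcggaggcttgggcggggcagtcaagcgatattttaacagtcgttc

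The motifs were chosen with the sequences in view and searched on both strands. The LXR element GGTNANNNNNGGTCA was in 0.207% of 32851 mouse windows of this length. In Abca1 it lay on the minus strand of the window, with its match starting 67 bases before the gene start, followed by a TATA box (TATAAA, in 13.6% of windows) at 29 bases before. The motif TCACGTG, bound by MiT/TFE factors that drive lysosomal genes, was in 3.77% of windows and lay 5 bases before the start of Plin2. The first Apoe window held no match. A PPAR element (0.801% of windows), PU.1 (GAGGAAGT, 3.20%) and SREBP (TCACNCCAC, 1.24%) forms had no match in the 10 windows that RefSeq gave for 7 of the genes. Abcg1, Fabp5 and Msr1 had no window in the table. The matched motifs in Abca1 and Plin2 did not overlap each other.

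Donor macrophages were compared with host microglia of the same disease group to ask how cells that came from the graft differ from the resident ones. Of the 10 genes, 9 were higher in donor macrophages than in GVHD host microglia and 0 were lower at an adjusted p under 0.05 (limma with Benjamini-Hochberg adjustment over 13086 genes). Among all tested genes 19.4% were called higher and 19.2% lower. In 9 of the genes each donor library was above each GVHD host library, as in 13.3% of all genes. Abcg1 had the opposite order without overlap, as in 14.6% of all genes. The median log2 fold change of the 10 genes was 2.30, against 0.04 over all tested genes. Fabp5 and Nr1h3 are part of both counts of 9 and of the median of 2.30. They passed the filter on low values (at least 1 in at least 3 libraries) only through the donors and so had to differ. Of the other 8 genes, 7 were higher and 0 lower, with a median of 2.64. The count of 9 was the same without donor 1, donor 5 and TCD host 1, and within the libraries marked API_197 in their titles, a mark whose meaning is not stated.

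**Figure D1:**
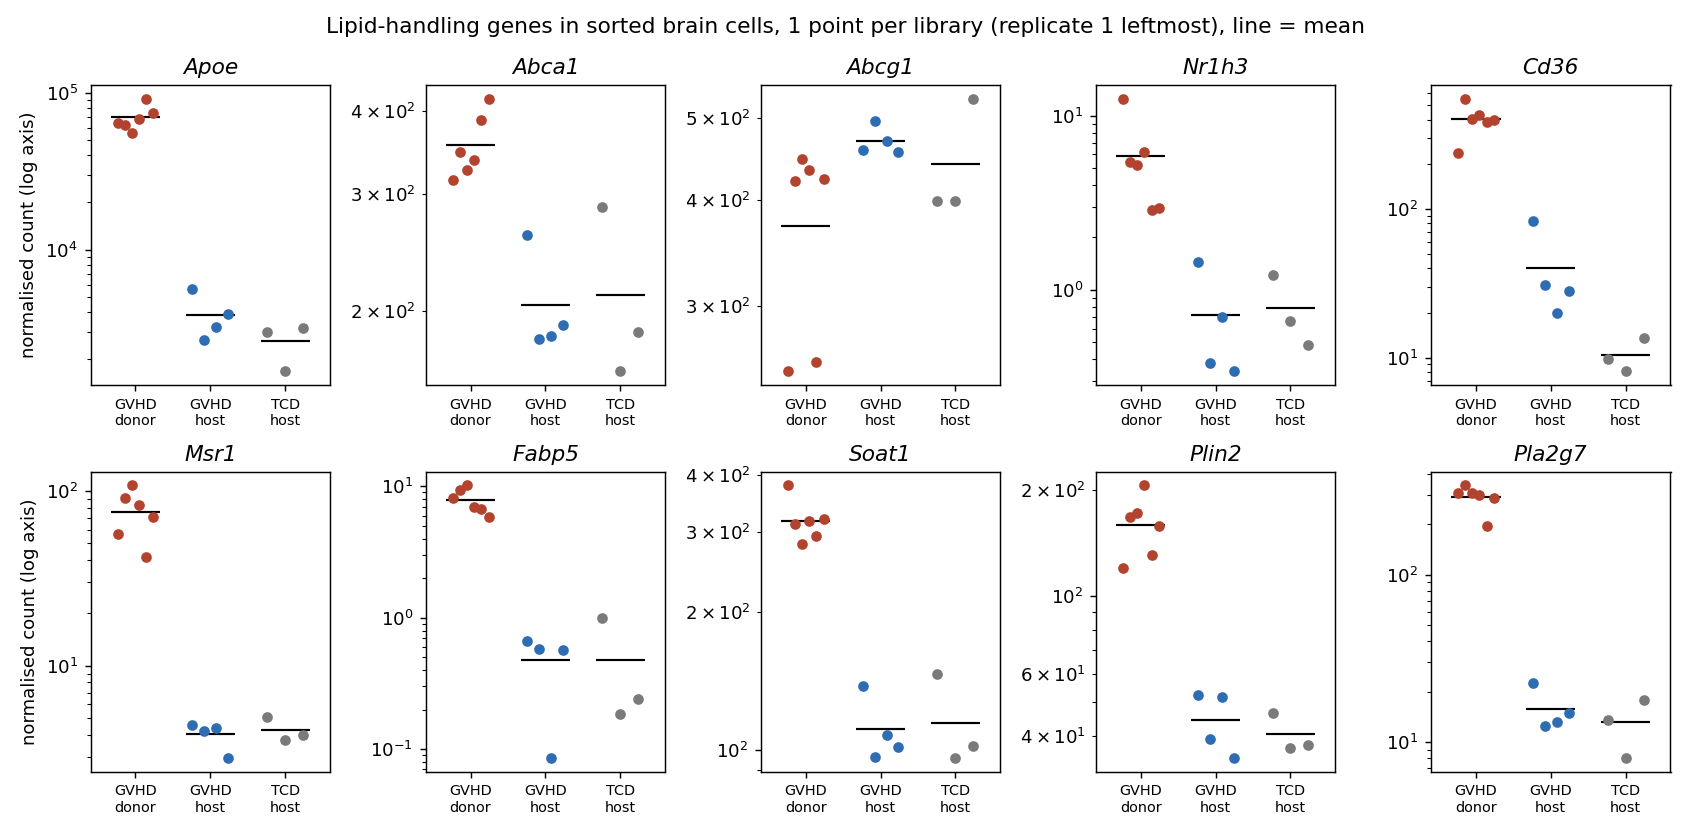
Normalised counts (log axes that differ between panels) of the 10 genes in 6 GVHD donor, 4 GVHD host and 3 TCD host libraries; points are libraries and lines are group means. Donor points lie above both host groups for each gene except Abcg1, and for Cd36 the GVHD hosts, at 19.9 to 82.6, lie above the TCD hosts, at 8.09 to 13.6.

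Apoe, which encodes the main lipid carrier of the brain, had the highest levels of the set. Donor macrophages had 55561 at the lowest, 66455 at the median and 91741 at the highest. GVHD host microglia had 5591, 2673, 3233 and 3906, and TCD host microglia had 2974, 1678 and 3165. The donor level was 18.1 times the mean of GVHD hosts and 26.7 times that of TCD hosts, and host groups overlapped. Apoe alone made up 5.19% to 8.53% of a donor library's total and was its first or second gene by value. It made up 0.279% to 0.628% of GVHD host libraries and 0.177% to 0.332% of TCD host libraries. The log2 fold change was 4.24 ± 0.22 against GVHD hosts (SE, limma adjusted p = 2.27e-08) and 4.83 ± 0.25 against TCD hosts (adjusted p = 2.83e-08). By fold change Apoe ranked 51 of 13086 genes against GVHD hosts. Among donors, Apoe was highest in donor 5.

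Abca1, the pump that loads cholesterol onto lipid-poor apolipoproteins, differed less. Donor macrophages had 315 at the lowest, 342 at the median and 418 at the highest. GVHD hosts had 259.9, 181, 183.1 and 190.2, and TCD hosts 287, 162 and 185. Each donor library was above each host library, but GVHD host 1 and TCD host 1, the only host libraries of API_183, came near the lowest donor. That donor, at 315, was donor 1, the only donor library of API_183. On the log2 scale the difference was 0.83 ± 0.14 against GVHD hosts (limma adjusted p = 3.92e-04) and 0.83 ± 0.15 against TCD hosts (adjusted p = 9.22e-04).

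Abcg1, which passes cholesterol to mature lipoprotein particles, was the gene of the set that was not called in either direction. Donors had 251 at the lowest, 423 at the median and 447 at the highest, GVHD hosts 459, 496, 470.5 and 456, and TCD hosts 399, 399 and 527. Donor 1 and donor 5 held the low donor values of 251 and 257, and these libraries are among those set apart by GC content. The log2 fold change was -0.40 ± 0.16 against GVHD hosts (95% interval -0.76 to -0.05, limma adjusted p = 0.0694) and -0.33 ± 0.18 against TCD hosts (-0.72 to 0.06, adjusted p = 0.185). Without donor 1, donor 5 and TCD host 1 it was -0.13 against GVHD hosts (adjusted p = 0.306) and -0.09 against TCD hosts (adjusted p = 0.567). Abcg1 overlaps the annotated rRNA gene Gm25447 on the same strand. The ratio of Abca1 to Abcg1 values within a library was at least 0.728 in donors, and at most 0.567 in GVHD hosts and 0.718 in TCD hosts.

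Nr1h3, the gene for the receptor LXR alpha, was low throughout. Donors had 2.88 at the lowest, 5.32 at the median and 12.6 at the highest, GVHD hosts 1.44, 0.379, 0.701 and 0.340, and TCD hosts 1.21, 0.664 and 0.483. The groups of donors and hosts did not overlap, though the donor values spread 4.36-fold, with donor 1 highest. Only 1 GVHD host and 1 TCD host library reached a value of 1, so the gene passed the filter on low values only through the donors and had to differ from the hosts. On the log2 scale the difference was 1.98 ± 0.22 against GVHD hosts (limma adjusted p = 1.18e-05) and 1.98 ± 0.24 against TCD hosts (adjusted p = 3.21e-05). Nr1h3 overlaps Gm13783 and Gm23390, and whether the counting used strand is not stated.

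Cd36, a scavenger receptor that takes up oxidised lipoproteins and long-chain fatty acids, was the only gene of the set without overlap among the 3 sorted groups. Donors had 237 at the lowest, 402 at the median and 554 at the highest. GVHD hosts had 82.6, 30.9, 19.9 and 27.9, and TCD hosts 9.73, 8.09 and 13.6. GVHD hosts lay above TCD hosts without overlap, as in 3.57% of all genes, but this difference was not called (limma adjusted p = 0.161). The log2 fold change was 3.47 ± 0.33 against GVHD hosts (limma adjusted p = 3.75e-06) and 5.15 ± 0.37 against TCD hosts (adjusted p = 2.99e-07). The donor mean was 9.97 times that of GVHD hosts and 38.3 times that of TCD hosts. Donor 1 was lowest among donors and GVHD host 1 highest among hosts.

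Msr1, the class A scavenger receptor for modified lipoproteins, was near the low end in hosts. Donors had 41.9 at the lowest, 77.2 at the median and 108 at the highest, GVHD hosts 4.56, 4.23, 4.40 and 2.95, and TCD hosts 5.06, 3.74 and 3.98. Donor 5 and donor 1 were the lowest donors, and both still lay well above each host. On the log2 scale the difference was 3.87 ± 0.23 against GVHD hosts (limma adjusted p = 6.86e-08) and 3.80 ± 0.26 against TCD hosts (adjusted p = 1.99e-07). Fabp5, the fatty-acid carrier, had 5.83 at the lowest, 7.62 at the median and 10.2 at the highest in donors. It was under 1 in each host, at 0.663, 0.581, 0.0854 and 0.567 in GVHD hosts and at 0.991, 0.186 and 0.241 in TCD hosts. It passed the filter only through the donors and so had to differ. Host values rested on 1.34 to 22.9 estimated reads, and the fold change depended on the pseudocount. It was 2.62 ± 0.19 on the log2 scale against GVHD hosts with a pseudocount of 1 and 3.62 with 0.25. Fabp5 has the near copy Fabp5l2, so its reads may have been divided.

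Soat1, which esterifies cholesterol for storage, had the smallest standard error of the set in both donor comparisons. Donors had 283 at the lowest, 315 at the median and 380.1 at the highest, GVHD hosts 138, 96.3, 108 and 102, and TCD hosts 146, 95.8 and 102. The highest donor and both highest host values came from API_183. The log2 fold change was 1.55 ± 0.08 against GVHD hosts (limma adjusted p = 1.45e-08) and 1.56 ± 0.08 against TCD hosts (adjusted p = 3.40e-08). Soat1 overlaps Gm37648 on the other strand.

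Plin2, the droplet coat protein whose promoter is shown above, had 119.6 at the lowest, 162 at the median and 206 at the highest in donors. GVHD hosts had 52.2, 39.3, 51.5 and 34.6, and TCD hosts 46.5, 37.0 and 37.7. The lowest donor was above the highest host by more than the range within either host group. On the log2 scale the difference was 1.82 ± 0.17 against GVHD hosts (limma adjusted p = 2.50e-06) and 1.94 ± 0.18 against TCD hosts (adjusted p = 3.66e-06).

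Pla2g7, the PAF hydrolase, had 195 at the lowest, 302 at the median and 342 at the highest in donors. GVHD hosts had 22.7, 12.4, 13.2 and 15.0, and TCD hosts 13.6, 8.02 and 17.7. Donor 5 held the low donor value, and the host groups overlapped. The log2 fold change was 4.15 ± 0.21 against GVHD hosts (limma adjusted p = 1.57e-08) and 4.46 ± 0.23 against TCD hosts (adjusted p = 2.83e-08). By fold change against GVHD hosts Pla2g7 ranked 60, Msr1 86, Cd36 130 and Fabp5 251 of 13086 genes. The antisense gene 1700071M16Rik overlaps Pla2g7, and the reads of both cannot be told apart unless strand was used.

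Against TCD host microglia, 9 of the 10 genes were again higher in donor macrophages and 0 were lower, and without Fabp5 and Nr1h3 the counts were 7 and 0 of 8. Among all tested genes 18.4% were called higher and 18.6% lower. Each donor library exceeded each TCD host in 9 genes, as in 14.4% of all genes, and the reverse order was met by 0 of the 10, against 15.1% of all genes. Those 9 include Fabp5 and Nr1h3, which passed the filter only through the donors and so had to differ. Without donor 1, donor 5 and TCD host 1 the counts against TCD hosts were again 9 and 0. The comparisons with GVHD and TCD hosts use the same donor libraries, so their counts are not separate evidence.

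**Figure D2:**
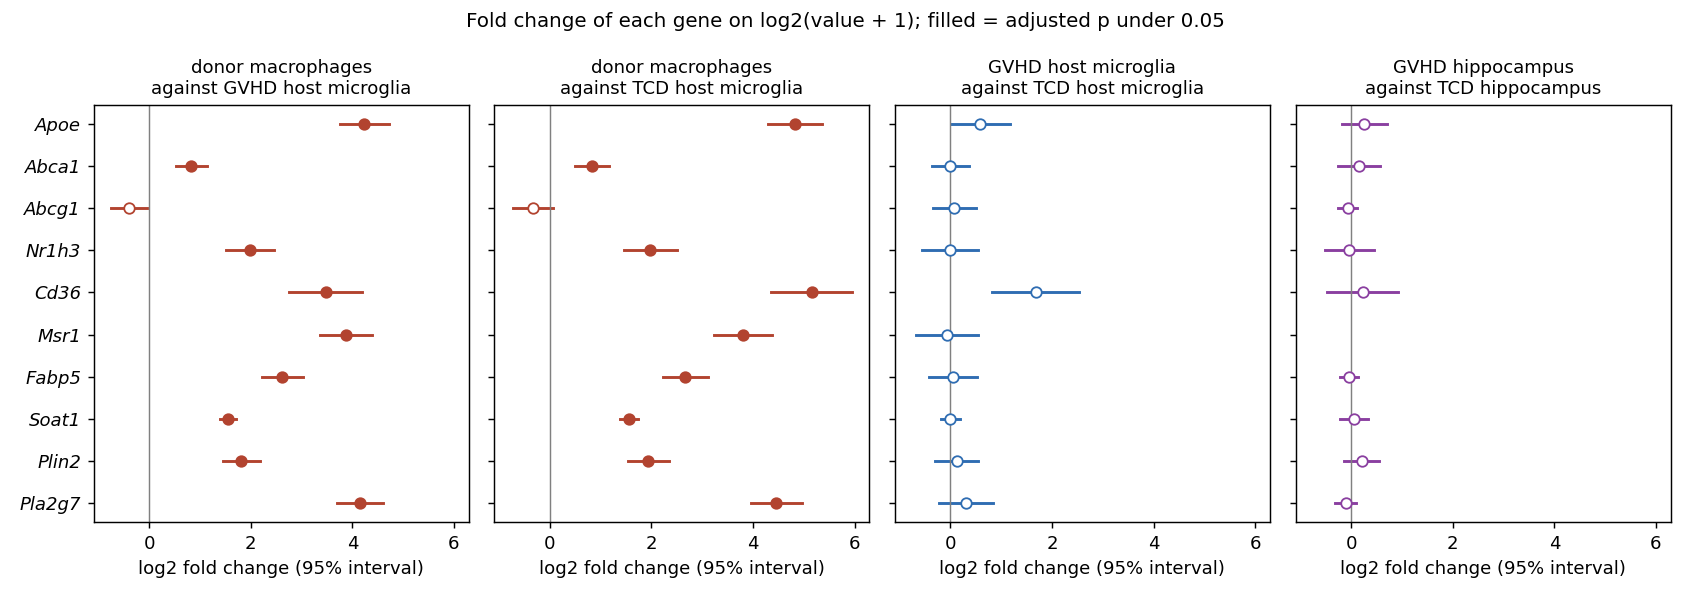
Log2 fold changes on log2(value + 1), with 95% intervals, of the 10 genes in 4 comparisons; filled points have an adjusted p under 0.05. In both donor comparisons 9 of 10 points are filled and right of 0, from 0.83 for Abca1 upward. In the comparisons of GVHD with TCD mice 0 points are filled, and Cd36 in host microglia, at 1.68, lies farthest from 0.

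Per kilobase of annotated exon, the order of mean levels differed between cell types. In donors Apoe, at 32521 ± 5889 per kb (SD, n = 6), was followed by Cd36 at 112 ± 28.3 and Pla2g7 at 99.6 ± 17.1, which did not differ beyond their spread. Abcg1 (51.0 ± 12.6), Plin2 (45.2 ± 8.82), Abca1 (34.2 ± 3.81) and Soat1 (32.5 ± 3.44) came next, with neighbours within their spread. Msr1 had 11.9 ± 3.74 per kb in donors, and Nr1h3 and Fabp5 came last at 2.33 ± 1.41 and 2.21 ± 0.47. In GVHD hosts Apoe, at 1801 ± 592 per kb (n = 4), was followed by Abcg1 at 64.4 ± 2.47 and Abca1 at 19.7 ± 3.64. Plin2, Soat1 and Cd36 lay at 11.2 to 12.6 per kb there, and Pla2g7 at 5.45 ± 1.61. In TCD hosts (n = 3) Apoe at 1219 ± 378, Abcg1 at 60.6 ± 10.1 and Abca1 at 20.4 ± 6.41 per kb led, and Cd36 was at 2.92 ± 0.80. Pla2g7 followed Apoe and Cd36 in donors and came behind Abcg1, Abca1, Plin2 and Soat1 in hosts. In GVHD hosts Cd36, at 11.2 ± 7.95 per kb, did not differ from Soat1 or Plin2 beyond its spread. Each of these orders is a description of mean levels, with no test between genes.

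Host microglia of GVHD mice were compared with those of TCD mice to ask what the disease changed in the resident cells. None of the 10 genes was called in either direction (limma, 0 higher and 0 lower), where 0.0917% of all tested genes were called higher and 0.0153% lower. At an unadjusted p under 0.05 there were 2 of 10, Cd36 and Apoe, and 6.85% of all tested genes. Cd36 was 3.85 times as high in the mean of GVHD hosts as in that of TCD hosts, with no overlap, as in 3.57% of all genes (2.98% had no overlap and were lower). Its log2 fold change was 1.68 ± 0.39 (95% interval 0.82 to 2.53, limma adjusted p = 0.161). Without GVHD host 1 it was 1.08 (adjusted p = 0.396), and within API_197 it was 1.22 (adjusted p = 0.236). Without donor 1, donor 5 and TCD host 1 it was 1.22 as well and again did not pass the threshold. Apoe had a log2 fold change of 0.59 ± 0.26 (95% interval 0.02 to 1.16, limma adjusted p = 0.715), and its groups overlapped. The intervals of Soat1, at -0.19 to 0.19, and of Abca1, at -0.36 to 0.36, were among the narrowest on the log2 scale. Those of Nr1h3 (-0.56 to 0.55) and Msr1 (-0.67 to 0.54) were taken on log2(value + 1), which understates changes of low genes. These 2 genes averaged 0.716 and 4.04 in GVHD hosts, so larger changes of their values were not excluded.

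Macrophage markers were low but present in the host libraries. The 10 macrophage and monocyte markers summed to 12052 to 20821 in donors, 506 to 1043 in GVHD hosts and 325 to 930 in TCD hosts. As a percentage of the donor mean, the median marker stood at 0.894 to 4.07 in GVHD hosts and at 1.07 to 3.51 in TCD hosts, with the first library of each group highest. Ly6c2 was at 0 in GVHD host 4 and TCD host 3. Cd36 stood at 20.5%, 7.68%, 4.96% and 6.94% of its donor mean in GVHD hosts, against 2.42%, 2.01% and 3.39% in TCD hosts. The markers ranged widely around that median, up to 17.5% for Itgal in GVHD host 1 and 30.8% for F13a1 in TCD host 1. Clec12a, a myeloid receptor of the marker list, stood at 3.24%, 1.23%, 0.994% and 1.77% in GVHD hosts, against 1.77%, 0.529% and 1.33% in TCD hosts. No marker of this list was called between the host groups. Larger differences were seen for Klra2, at a mean of 4.57 in GVHD hosts and 1.28 in TCD hosts (log2 fold change 1.14 ± 0.44, limma adjusted p = 0.630). Plbd1 had 6.58 in GVHD hosts and 2.30 in TCD hosts (1.198 ± 0.45, adjusted p = 0.609). Itgal had 10.98 in GVHD hosts and 4.74 in TCD hosts (0.96 ± 0.22, adjusted p = 0.161). Ms4a7 hardly differed, at 22.1 in GVHD hosts and 21.9 in TCD hosts. Fn1 and F13a1 had the opposite direction. Fn1 averaged 0.319 in GVHD hosts and 0.798 in TCD hosts, and F13a1 7.53 in GVHD hosts and 53.9 in TCD hosts. The TCD mean of F13a1 came mostly from TCD host 1, at 146, against 10.6 and 5.43 in the other TCD hosts. Lyz2 stood at 6.24%, 3.83%, 3.15% and 4.32% in GVHD hosts, against 4.92%, 1.96% and 3.59% in TCD hosts. Apoe stood at 8.04%, 3.84%, 4.65% and 5.62% in GVHD hosts, against 4.28%, 2.41% and 4.55% in TCD hosts. GVHD host 1 was highest among GVHD hosts for 9 of the 10 genes, all but Abcg1, and for the marker sum. Among TCD hosts, TCD host 1 was highest for the marker sum and for Abca1, Soat1, Plin2, Fabp5, Msr1 and Nr1h3. TCD host 3 was highest for Apoe, Abcg1, Cd36 and Pla2g7. The part of macrophage RNA in the host values was not tested. Abca1, Soat1, Plin2 and Abcg1 stood at 21.8% of the donor mean or more in each host, above the median marker of each library. Astrocyte markers, 7 of 8 in the table, summed to 338.5 to 448 in GVHD hosts and 247 to 301 in TCD hosts, against 48.2 to 86.8 in donors. Slc1a3 made up most of the host sums, and the other 6 summed to 19.7 to 40.4 in GVHD hosts and 10.9 to 19.9 in TCD hosts, against 29.8 to 56.2 in donors. Neutrophil markers (8 of 8) summed to 21.4 to 618 in donors, 1.44 to 20.99 in GVHD hosts and 3.14 to 111 in TCD hosts. TCD host 1 also had a border macrophage marker sum of 604, against 112 and 113 in the other TCD hosts.

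**Figure D3:**
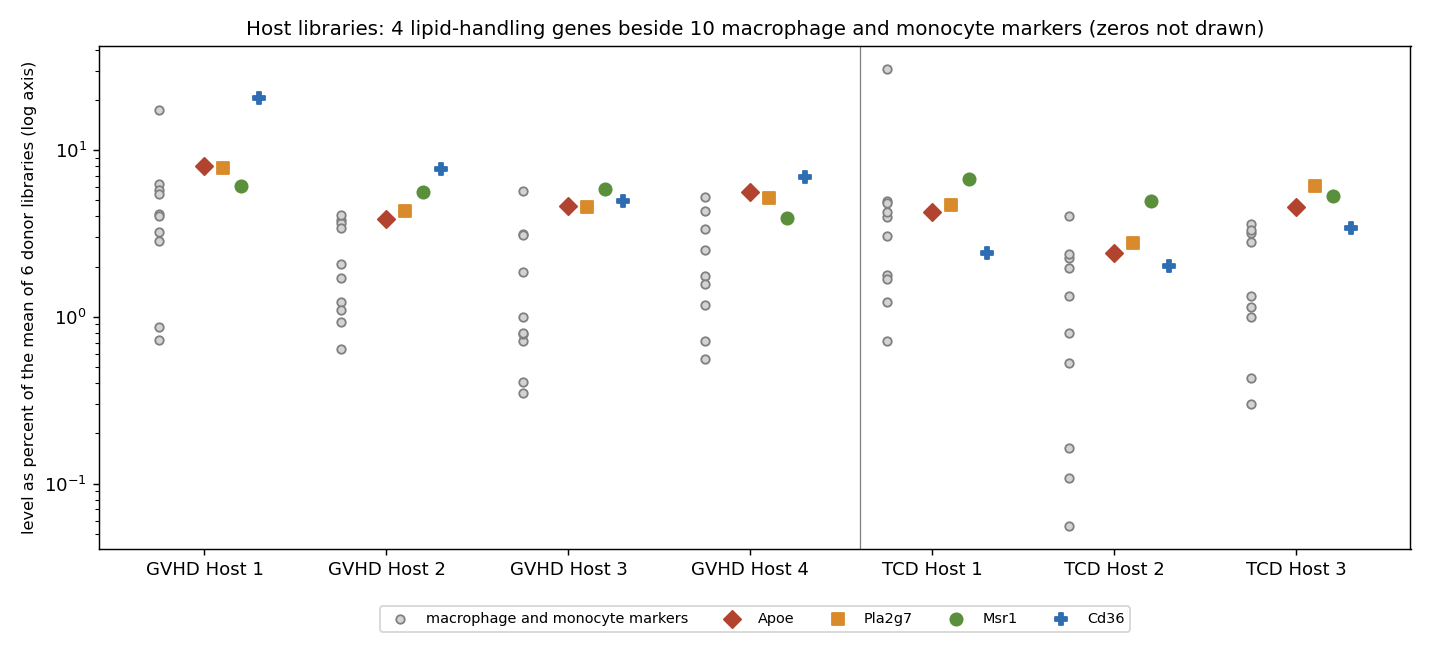
Level in each host library as a percentage of the mean of 6 donor libraries (log axis) for Apoe, Pla2g7, Msr1 and Cd36 (coloured) and for 10 macrophage and monocyte markers (grey, zeros not drawn). Cd36 lies above 9 of 10 or all markers in each GVHD host, up to 20.5% in GVHD host 1, and within the range of the markers in each TCD host, at 2.01% to 3.39%.

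Whole hippocampus was compared between GVHD and TCD mice to ask how the tissue of diseased mice differed. None of the 9 genes tested was called (limma, 0 higher and 0 lower), where 0.319% of 14404 genes were called higher and 0.16% lower, and 0 of the 9 had an unadjusted p under 0.05, as 17% of all tested genes did. In 0 of the 9 did the groups separate, against 10.8% of all genes higher and 13.2% lower without overlap. In bulk tissue, fewer cells of a type and less RNA per cell cannot be told apart.

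Apoe had 1815, 2663 and 1578 in GVHD hippocampi, against 1910, 1698 and 1360 in TCD hippocampi. The groups overlapped, and GVHD hippocampus 2 was highest. On the log2 scale the difference was 0.26 ± 0.20 (95% interval -0.19 to 0.71, limma adjusted p = 0.538), and 0.04 without that library. Cd36 had 3.19, 5.28 and 1.53 in GVHD hippocampi, against 2.15, 2.97 and 2.32 in TCD hippocampi, with both the highest and the lowest value in the GVHD group. Its log2 fold change was 0.22 ± 0.30 (adjusted p = 0.755), and -0.09 without GVHD hippocampus 2. That library also had 202 of Lyz2, against 94.0 and 40.8 in the other GVHD hippocampi and 41.1, 24.3 and 8.99 in TCD hippocampi. It had 10.7 of P2ry12, against 33.2 and 44.8 in the other GVHD hippocampi and 43.2, 44.3 and 48.7 in TCD hippocampi. The sum of the 10 microglia markers differed less, at 199.7, 170.6 and 219.0 in GVHD hippocampi, against 253.2, 232.0 and 205.6 in TCD hippocampi. The macrophage and monocyte markers, 9 of 10 in the table, summed to 183.5, 320.5 and 109.9 in GVHD hippocampi, against 121, 100.1 and 76.6 in TCD hippocampi. The part of these cells in the Apoe and Cd36 values was not tested.

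Plin2 had 5.67, 6.87 and 7.27 in GVHD hippocampi, against 5.70, 6.24 and 4.83 in TCD hippocampi, a log2 fold change of 0.21 ± 0.15 (limma adjusted p = 0.516). Abca1 had 55.7, 51.5 and 58.0 in GVHD hippocampi, against 66.6, 49.5 and 36.7 in TCD hippocampi, so that the GVHD values lay within the TCD range. Pla2g7 had 172, 171 and 182 in GVHD hippocampi, against 204, 196.8 and 165 in TCD hippocampi, a log2 fold change of -0.10 ± 0.09 (adjusted p = 0.606). Abcg1 at 66.4 to 68.5 in GVHD hippocampi, against 66.1 to 77.8 in TCD hippocampi, and Fabp5 at 40.3 to 44.3, against 41.8 to 46.3, were the steadiest. Their 95% intervals, from -0.25 to 0.12 and from -0.23 to 0.14 on the log2 scale, were the narrowest of the set here. Soat1 ran from 22.6 to 29.9 in GVHD hippocampi, against 22.3 to 25.8 in TCD hippocampi, and Nr1h3 reached 3.17 in GVHD hippocampi, against 3.27 in TCD hippocampi, with overlapping groups.

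**Figure D4:**
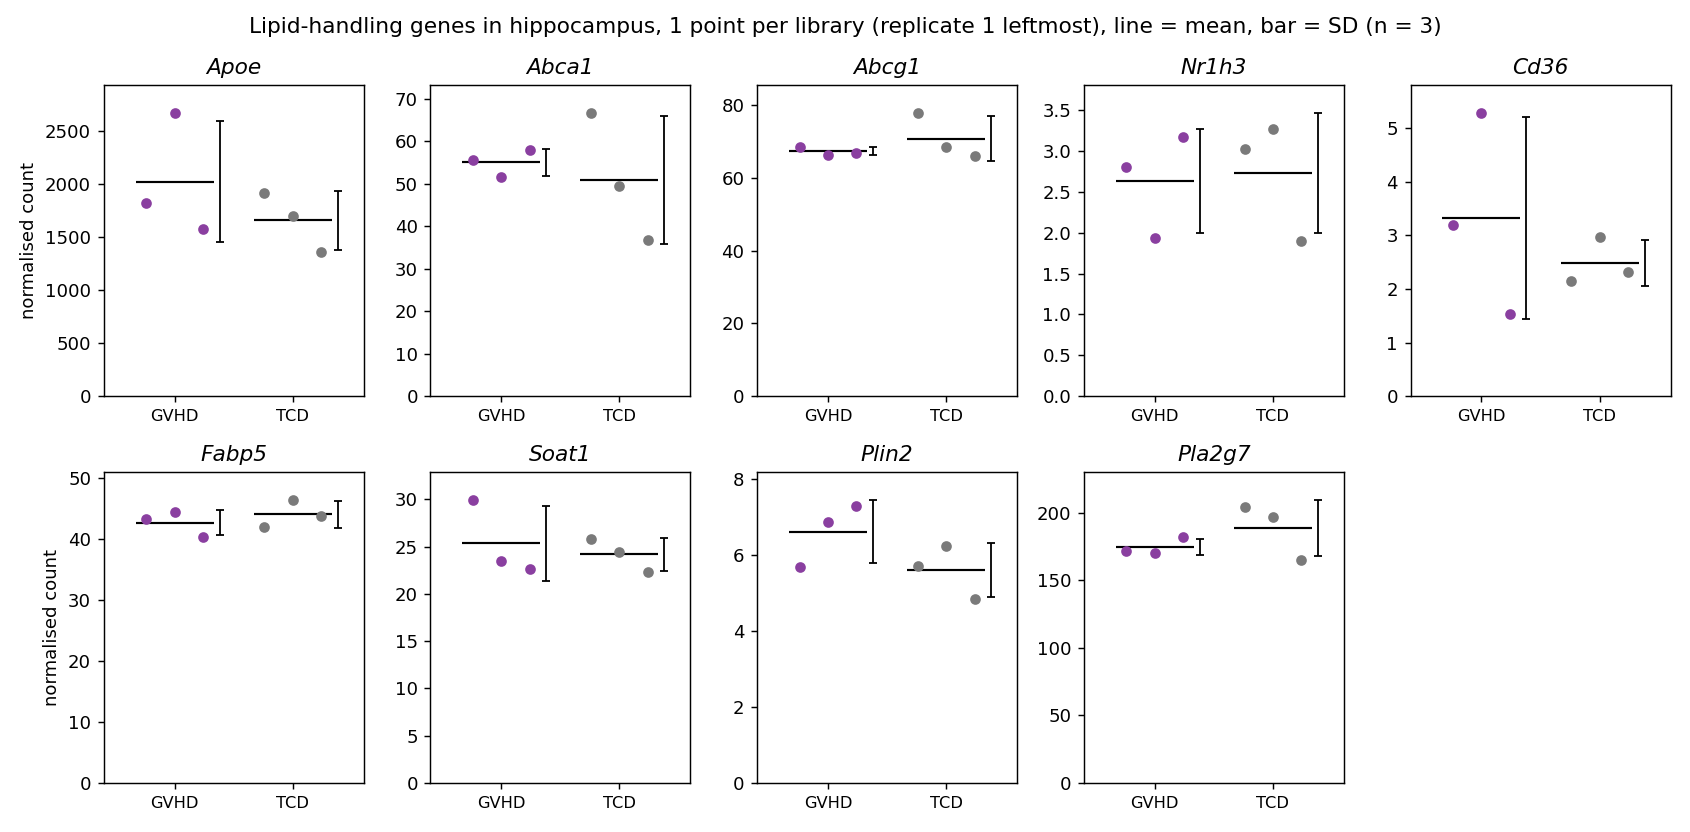
Normalised counts of the 9 genes measured in 3 GVHD and 3 TCD hippocampi; points are libraries, lines are means and bars are SD. The groups overlap in each panel, and GVHD hippocampus 2 (middle GVHD point) is highest for Apoe at 2663 and for Cd36 at 5.28.

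The order of levels in hippocampus was unlike that in sorted cells. Per kilobase, in GVHD hippocampi (n = 3), Apoe at 944 ± 267 was followed by Pla2g7 at 60.2 ± 2.11, Fabp5 at 11.9 ± 0.57, Abcg1 at 9.22 ± 0.15 and Abca1 at 5.31 ± 0.31. Soat1, Plin2, Nr1h3 and Cd36 lay at 2.59, 1.88, 1.05 and 0.928 per kb. Fabp5 thus followed Apoe and Pla2g7 in hippocampus. It had the lowest mean in each sorted group, though not below Nr1h3 beyond their spread. These orders depend on the length used, which for Fabp5 was 3567 bases with all annotated exons together, and its reads may have been divided with Fabp5l2. The hippocampus and sorted tables were normalised separately, so levels are not set against each other across them. Astrocyte markers summed to 6009 to 6697 in GVHD hippocampi and 6316 to 7280 in TCD hippocampi.

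Other lipid genes were read from 6 lists that hold none of the 10 genes, against a background of 19.4% of all tested genes called higher and 19.2% lower in donors against GVHD hosts. Genes of these lists that passed the filter only through the donors had to differ. The lists were not counted without such genes. In donor macrophages against GVHD host microglia, 8 of 12 tested genes of efflux and lipoproteins were higher (66.7%) and 2 lower (limma, adjusted p under 0.05), with a median log2 fold change of 1.56. Apobec1, the editing enzyme of apolipoprotein B mRNA, rose by 2.11 ± 0.11, Pltp, which transfers phospholipid between lipoproteins, by 4.17 ± 0.23, Cyp27a1, a sterol hydroxylase, by 1.76 ± 0.13 and Apoc2, the cofactor of lipoprotein lipase, by 3.70 ± 0.28. Pltp averaged 83.2 ± 31.1 in donors (SD, n = 6) and 3.74 ± 1.17 in GVHD hosts (n = 4). The members that fell, named after their values were seen, were Abcg2 and Abca9, both ABC transporters, at -1.31 and -1.11.

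Of 16 tested genes of lipid uptake, 6 were higher (37.5%) and 2 lower (12.5%), with a median of 0.45. Cxcl16, a transmembrane chemokine that binds oxidised lipoprotein, rose by 2.13 ± 0.12 and Stab1, a scavenger receptor, by 2.05 ± 0.33. Trem2, the microglial lipid sensor, fell by 0.71 ± 0.13 on the log2 scale. Of 15 lysosomal lipid genes, 8 were higher (53.3%) and 4 lower (26.7%), with a median of 0.50. Nceh1, a cholesteryl ester hydrolase, rose by 1.44 ± 0.13, Galc, which breaks down a myelin lipid, by 1.69 ± 0.17 and Lipa, the lysosomal acid lipase, by 0.92 ± 0.09.

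Of 15 droplet and storage genes, 2 were higher and 2 lower, with a median of 0.11, and at 13.3% each both shares lay below the background. Plin3, another droplet coat protein, rose by 2.04 ± 0.13 and Acsl1, which activates fatty acids, by 1.41 ± 0.11. Mgll, which breaks down monoglycerides, fell by 2.63 ± 0.19 and Acsl4 by 1.02 ± 0.17. Of 16 nuclear receptors and lipid regulators, 5 were higher (31.2%) and 4 lower (25%), with a median of 0.08. Pparg, a fatty-acid-sensing receptor, averaged 8.40 ± 4.55 in donors (SD, n = 6) and 0.220 ± 0.16 in GVHD hosts (n = 4), a log2 fold change of 2.83 ± 0.32. Its GVHD host mean was under the filter value of 1. Pparg thus passed the filter through other libraries, and its difference was favoured in advance. Lpcat3, which is an LXR target, fell by 2.34 ± 0.10, Mylip, another LXR target, by 1.21 ± 0.14 and Scd2, a fatty-acid desaturase, by 2.34 ± 0.21. Of 8 PAF and lysophospholipid enzymes, 1 was higher (12.5%) and 4 lower (50%), with a median of -0.36. Pafah1b3 rose by 0.45 ± 0.12, while Pla2g4a fell by 1.09 ± 0.13, Lpcat2, which makes PAF, by 0.74 ± 0.10 and Lpcat1 by 0.77 ± 0.19.

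**Figure D5:**
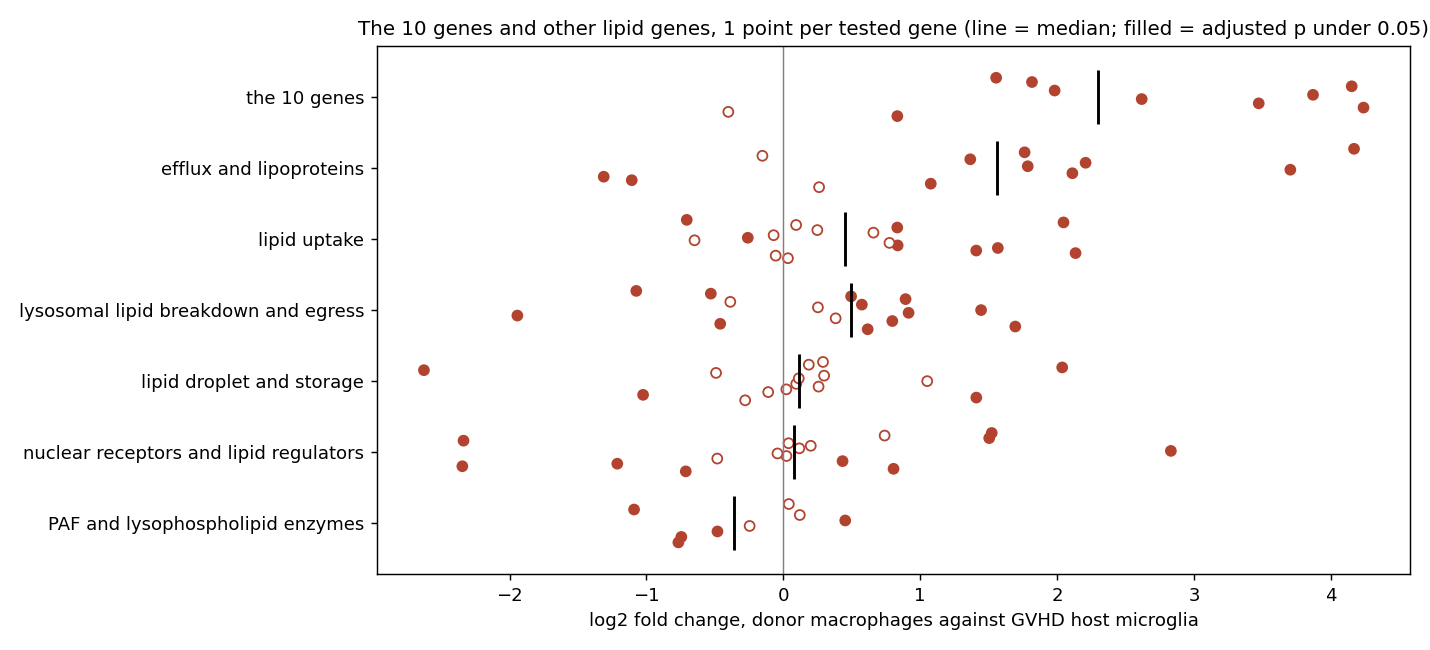
Log2 fold change in donor macrophages against GVHD host microglia for the 10 genes and 6 lists of other lipid genes; points are tested genes, filled where the adjusted p is under 0.05, and black lines are medians. Medians run from 2.30 for the 10 genes and 1.56 for efflux and lipoproteins to -0.36 for PAF and lysophospholipid enzymes.

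Against TCD host microglia the same lists had 8 higher and 2 lower (efflux and lipoproteins), 5 and 1 (uptake), 9 and 4 (lysosomal), 4 and 3 (droplet and storage), 3 and 4 (regulators) and 1 and 4 (PAF enzymes). By the naming rule Psap, the precursor of lysosomal saposins, joined with 1.12 ± 0.10 and Dgat2, the last enzyme of triglyceride synthesis, with 1.45 ± 0.31. Between GVHD and TCD host microglia 0 genes of the 6 lists were called (limma). At an unadjusted p under 0.05 there were 2 uptake, 3 droplet and storage, 1 lysosomal and 1 efflux gene, with 6.85% of all tested genes at that level. Between hippocampi 1 was called, Enpp2, which encodes autotaxin and is also a choroid plexus gene. Enpp2 had 1367, 572 and 1615 in GVHD hippocampi, against 157, 178 and 149 in TCD hippocampi (log2 fold change 2.74 ± 0.33, limma adjusted p = 0.0195). The 8 choroid plexus markers summed to 3205, 1053 and 3696 in GVHD hippocampi, against 109, 43.2 and 28.7 in TCD hippocampi, and their part in the Enpp2 value was not tested. The call was lost without GVHD hippocampus 1 or 3 or TCD hippocampus 2, with a block by title number and with no variance trend.

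The genes whose log2 values followed each of the 10 most closely over the 13 sorted libraries were looked up, leaving out the 10 themselves. Since these libraries fall into donors and hosts, the correlations describe mainly that difference and carry no p. Pla2g7 was closest to Dnase1l1 (Pearson r = 0.997) and Clec12a (0.996), Msr1 to Iqgap2 (0.996), Fabp5 to Ldlrad3 (0.995), Soat1 to Slc28a2 (0.994) and Apoe to Ptpn22 (0.993). Cd36 was closest to Slamf7 (0.987), with the MHC class II gene H2-Ab1 next but one (0.983), and Plin2 to Trim25 (0.986), with Apoc2 next but one (0.983). Nr1h3 was closest to Pirb (0.979), Abca1 to Cyb5r1 (0.965) and Abcg1 to Ssr1 (0.963). Among the 10 genes, Apoe and Pla2g7 had an r of 0.988, while Abcg1 had negative values with each of the other 9, from -0.588 with Nr1h3 to -0.392 with Cd36.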

How the data were processed

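RNA was measured in 6 hippocampus and 13 sorted-cell libraries. The submitters' processing notes name RSEM 1.2.30, STAR 2.5.2a, cutadapt 1.9 and the build GRCm38. What the authors deposited is a signal, called normalised counts in the names of the deposited files, with nearly equal library totals (890565 to 1090630 in sorted cells). How the authors scaled it is not given in the sources used here. The values were not whole reads, so no count test was run; read numbers are totals divided by the smallest step and are estimates. Libraries are labelled stranded RNA per the labels, and the use of strand in counting is not given in the sources used here.

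Values were tested as log2(value + 1), which understates changes of low genes, for genes of at least 1 in at least 3 libraries, with two-sided tests in limma 3.58.1 (R 4.3.3) with a variance trend. P-values were adjusted by Benjamini-Hochberg across every gene tested. Sorted cells were fitted together with the API mark of the titles as covariate. The fit was tested on simulated data. Symbols and exon lengths came from GENCODE vM21. The genes, lists and tests were chosen with earlier results of these data known. Named genes were the 10 genes, up to 4 called genes of each list with the smallest p in each comparison, and the 3 closest genes by Pearson r, of which the report gives 1 or 2. Abcg2, Abca9 and some markers were named after their values were seen. Some genes that the rule names are not reported here. Donor and GVHD host libraries sharing an API and description number deviated together (r = 0.166 to 0.394 over 4 pairs), as did donor and TCD host libraries of the same title number (0.308 to 0.585 over 3 pairs), each pair above the criterion of 0.1. Unmatched donor and host libraries reached 0.404 (GVHD) and 0.532 (TCD), so r alone does not show that the numbers pair the libraries, and the labels do not say what is shared. Alternatives covered pseudocount, filter, rescaling, the trend, covariates, blocks and left-out libraries.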

Additional observations from a re-analysis of the deposited data

Results flagged for a closer look

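Within groups of at least 4 libraries, 20 combinations of gene and group were checked for a library far from its group mates by Dixon's criterion, of which chance would mark about 1 in 20, and 3 were found. Nr1h3 had 12.6 in donor 1, against 2.88 to 6.16 in the other 5 donors. Abca1 had 259.9 in GVHD host 1, against 181 to 190.2 in the other 3 GVHD hosts. Fabp5 had 0.0854 in GVHD host 3, against 0.567 to 0.663 in the other 3. Donor 1 and GVHD host 1 are both of API_183. The Fabp5 value rests on an estimated 1.34 reads. Groups of 3 libraries were not checked.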

How the results depend on the processing

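The counts of called genes among the 10 did not change under any alternative run: 9 higher and 0 lower for donor macrophages against GVHD host microglia (26 alternatives) and against TCD host microglia (25), and 0 and 0 between the host microglia of GVHD and TCD mice (25) and in hippocampus (14). Both counts of 9 include Fabp5 and Nr1h3, which passed the main filter only through the donors and so had to differ. The other 7 genes were also called in each of these alternatives. One alternative, leaving out donor 1, donor 5 and TCD host 1 together, was chosen after seeing the data. With a replicate block by the description number, the Apoe change in donors against GVHD hosts was 4.25, against 4.24 without the pairing, and Abcg1 had -0.50 (adjusted p = 0.0540); the blocks by title number changed no call among the 10 either. In hippocampus, same-numbered libraries did not deviate together (r = -0.183 to -0.040), nor did all those of GVHD and TCD hosts (-0.017 to 0.222). Over the alternatives Cd36 in GVHD against TCD host microglia ran from 1.08 to 1.93 on the log2 scale (adjusted p 0.0973 to 0.520).

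Only uncalled changes turned direction. Besides changes near 0, these included Cd36 (main value 0.22) and Abca1 (0.15) in hippocampus. In GVHD against TCD host microglia, Abca1 (main value -0.00057) was 0.012 after median-of-ratios rescaling, 0.038 after quantile normalisation, 0.093 within API_197 and without the 3 libraries, and 0.024 in a fit of 2 groups. Soat1 was -0.013 with the title block and -0.035 without the API covariate, Fabp5 -0.017 after quantile normalisation and Nr1h3 0.018 with a pseudocount of 5. Leaving out 1 library at a time moved Abca1 from -0.13 to 0.18, Abcg1 from -0.057 to 0.17, Soat1 from -0.048 to 0.060, Plin2 from -0.00266 to 0.24, Fabp5 from -0.04 to 0.22, Msr1 from -0.15 to 0.067, Nr1h3 from -0.18 to 0.11 in host microglia, and Abca1 from -0.062 to 0.36, Abcg1 from -0.11 to 0.000698, Soat1 from -0.065 to 0.13, Cd36 from -0.092 to 0.57, Nr1h3 from -0.20 to 0.12 in hippocampus. The cause was not tested. Of the counts over the other lists, 22 moved by over 1.5 times or to or from 0. The other 1058 did not, and these include counts that stayed at 0. Over all genes, calls between GVHD and TCD hosts numbered 12 higher and 2 lower, against 2 and 0 with the title block, 1 and 0 within API_197 and 0 and 0 in a fit of 2 groups. In hippocampus they numbered 46 and 23, against 15 and 1 with the title block and 0 and 0 without the variance trend, without GVHD hippocampus 3 or without TCD hippocampus 2. Fabp5 and Nr1h3 rest on few reads in hosts, which limits their fold changes.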
